A study of Mus musculus with 3 samples.

Results

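The COUP-TF and TLX receptors are a branch of the NR2 family of nuclear receptors, and 4 of their genes were examined here: Nr2f1 (COUP-TFI), Nr2f2 (COUP-TFII), Nr2f6 (EAR2) and Nr2e1 (TLX). They are 4 of 21887 protein-coding genes in the gene table. Their members in the data were all accessible regions overlapping the gene body or the 50 kb on either side, which gave 53 of 147229 merged regions: 17 at Nr2f1, 11 at Nr2f2, 10 at Nr2f6 and 15 at Nr2e1. Open chromatin was read by single-cell ATAC-seq (the enzyme Tn5 inserts adapters into accessible DNA of each nucleus) in 3 mouse libraries from a study of tumors induced by electroporating piggyBac transposons into embryos in utero. The groups were Control, PDGFB-WT overexpression and PDGFB-NLS overexpression, each with 1 library and each with the tissue label glioma. PDGFB is a ligand of the PDGF receptors and drives growth of glial precursors. What the Control animals received, what NLS stands for, the strain, the age, the promoter of the transgene and the number of animals per library are not stated in the labels. With 1 library per group there is no replicate, so no test between groups was possible and every interval below is an exact 95% interval of counting error only. The genes were chosen by their gene-end and distal accessibility in these same libraries, so their gene-end and distal values are given as a description.

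COUP-TFs and TLX are orphan receptors that bind DNA at copies of the hexamer AGGTCA or, for TLX, of its variant AAGTCA. They act mostly as repressors, by recruiting corepressors and histone deacetylases. In the brain, TLX keeps neural stem cells dividing and is found in astrocytes, COUP-TFI patterns the cortex, and COUP-TFII is known for its part in veins, mural cells and interneurons of the caudal ganglionic eminence. EAR2 is the most widely expressed of them.

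The promoters of the 4 genes differ in base composition, and they are shown because no region was called over that of Nr2f2, unlike the other 3 printed here. All 4 genes lie on the minus strand, and the 250 bases before the start are given from RefSeq (GRCm38.p6, the assembly of mm10), 5′ to 3′ on the strand of the gene. Capitals mark GC boxes (GGGCGG) and CCAAT boxes (CCAAT), searched on both strands, with adjoining GC boxes overlapping by 1 base in the Nr2f6 promoter.
Nr2f1, chr13:78198874-78199123: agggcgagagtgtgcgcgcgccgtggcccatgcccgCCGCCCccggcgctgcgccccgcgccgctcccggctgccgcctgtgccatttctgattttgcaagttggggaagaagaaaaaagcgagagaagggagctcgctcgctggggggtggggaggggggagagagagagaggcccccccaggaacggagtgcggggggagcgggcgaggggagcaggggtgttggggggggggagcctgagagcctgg
Nr2f2, chr7:70366747-70366996: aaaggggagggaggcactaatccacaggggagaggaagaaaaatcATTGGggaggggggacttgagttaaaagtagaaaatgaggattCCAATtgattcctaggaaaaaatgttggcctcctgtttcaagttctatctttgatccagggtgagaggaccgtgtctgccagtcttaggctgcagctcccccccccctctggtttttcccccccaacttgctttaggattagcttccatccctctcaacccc
Nr2f6, chr8:71381953-71382202: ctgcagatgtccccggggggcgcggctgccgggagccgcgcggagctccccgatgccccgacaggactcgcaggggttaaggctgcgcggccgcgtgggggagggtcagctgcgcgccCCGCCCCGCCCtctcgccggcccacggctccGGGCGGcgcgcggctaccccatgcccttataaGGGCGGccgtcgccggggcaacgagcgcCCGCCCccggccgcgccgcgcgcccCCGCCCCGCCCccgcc
Nr2e1, chr10:42583591-42583840: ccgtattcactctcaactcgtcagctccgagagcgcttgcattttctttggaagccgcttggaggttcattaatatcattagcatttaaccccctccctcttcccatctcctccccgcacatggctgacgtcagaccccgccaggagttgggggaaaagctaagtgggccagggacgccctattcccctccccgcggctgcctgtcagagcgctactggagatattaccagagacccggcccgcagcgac
The Nr2f6 promoter was 82.4% G and C with 42 CpG dinucleotides and 7 GC boxes. The Nr2f1 promoter was 72% G and C with 22 CpG and 1 GC box, and the Nr2e1 promoter 58% with 15 CpG and no GC box. The Nr2f2 promoter was 50% G and C with 1 CpG, no GC box and 2 CCAAT boxes. The median over 32851 mouse promoters of the same length was 52.4% and 6 CpG. Of these, 32.7% held a GC box and 33.8% a CCAAT box. The hexamers that the receptors bind were in none of the 4 sequences, and 14.0% of all promoters held AGGTCA and 13.1% AAGTCA. All 250 bases lay inside a peak of every library at the printed starts of Nr2f1, Nr2f6 and Nr2e1. At Nr2f2 none did, and the nearest peak was 1198 bp away in Control, 4457 bp for PDGFB-WT and 1252 bp for PDGFB-NLS. RefSeq lists 4 transcripts of Nr2f2 and the promoter table holds 1 of its starts, so a start inside the gene body was not examined by sequence. For Nr2f1 the table holds 2 starts. The promoter of its second one, inside the gene (chr13:78196450-78196699), was 39.6% G and C with 2 CpG and neither box, and none of its bases lay in a peak. The nearest peak to it was 794 bp away in Control, 878 bp for PDGFB-WT and 1083 bp for PDGFB-NLS.

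The libraries differed in depth. Control held 31588784 counts in 2226 barcodes (median 13054 per barcode), PDGFB-WT 7008951 in 7441 (median 821) and PDGFB-NLS 31177621 in 10996 (median 2767.5). Levels are given as CPM, each count scaled to the sum over the 47450 regions called in all 3 libraries. Called peaks had a median of 4.42 CPM in Control and 3.99 in PDGFB-NLS but 9.93 in PDGFB-WT. The lowest 5% of called peaks lay at or below 1.32, 1.26 and 1.78 CPM in the same order. For the lowest 1% these were 0.89, 0.90 and 0.89 CPM. Peaks called in the shallow PDGFB-WT library were thus stronger in the median, but weak ones were also called there. The library pairs shared 22, 45 and 118 barcodes, and leaving these barcodes out moved no ratio past its interval.

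The windows of the 4 genes held 37 of 107627 peaks in Control, 21 of 57616 for PDGFB-WT and 48 of 127094 for PDGFB-NLS. Of the 53 regions, 20 were called in all 3 libraries, 13 in 2 and 20 in 1. Over the series, 47450 of 147229 regions were called in all 3. PDGFB-NLS alone called 15, Control alone 4 and PDGFB-WT alone 1. Nr2e1 had 7 of the 15 regions found in PDGFB-NLS alone, and Nr2f2 had 4. The share of all regions that only 1 library called is not given here, so nothing is read from these counts. The plot of regions by distance from the gene start shows most of the stronger Nr2f1 regions at and just upstream of its start, and those of Nr2e1 at its start, in the gene body and in the upstream flank. At the border of the windows, the outermost region inside was 48.4 kb from Nr2e1 with 6.47 CPM in PDGFB-NLS alone. The nearest region outside was 50.1 kb away, with 5.16 CPM in Control and 6.47 in PDGFB-NLS.

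**Figure D1:**
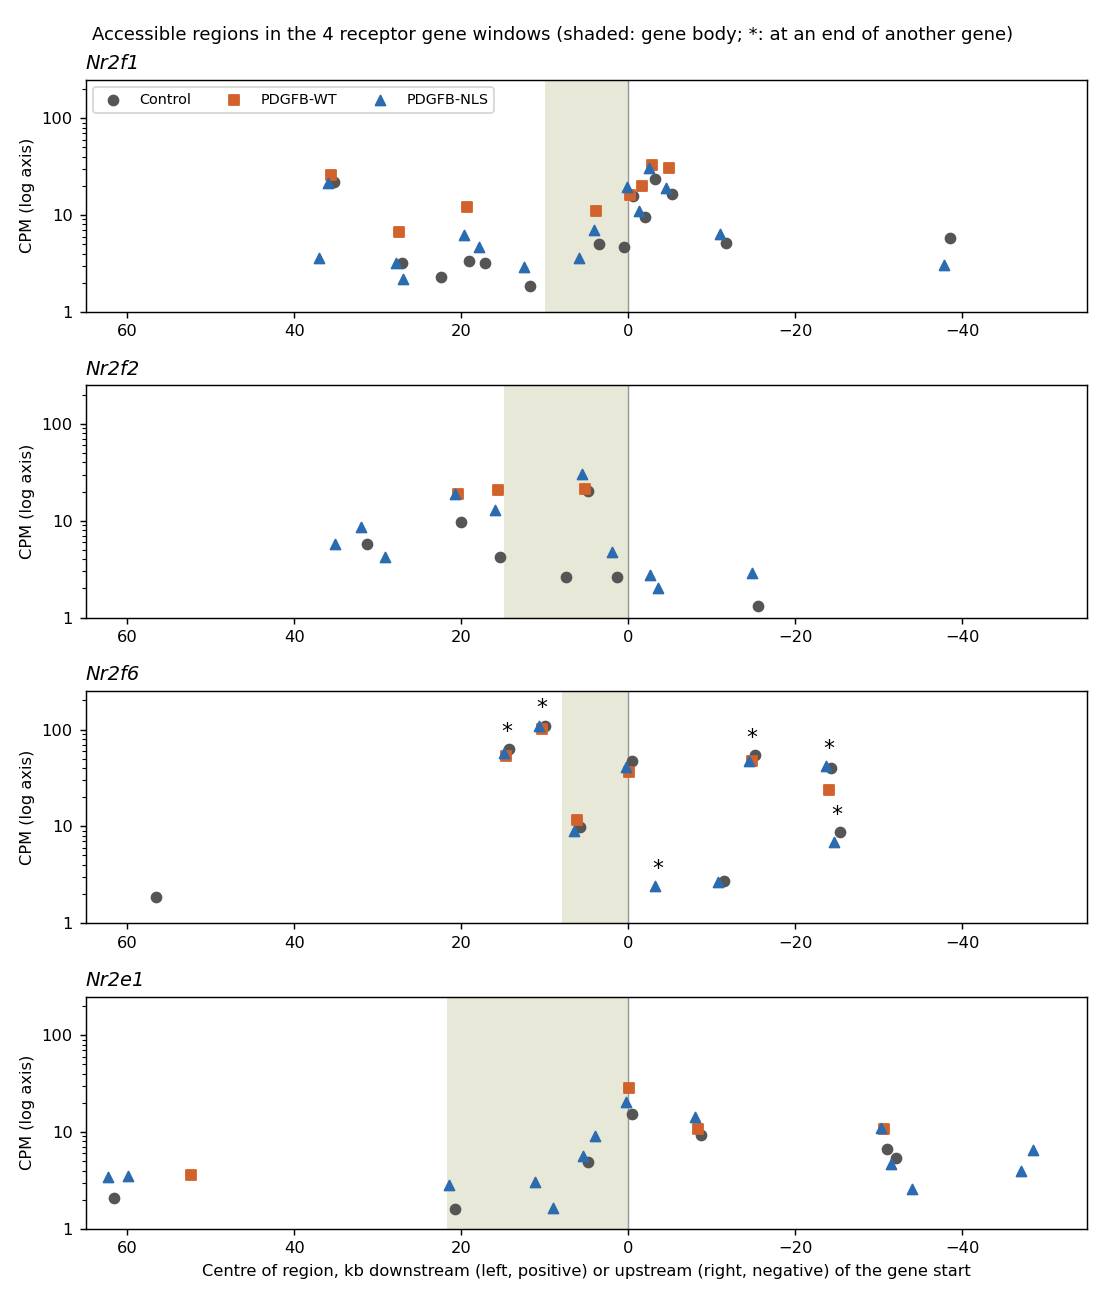
CPM of each called region (log axis) against the distance of its centre from the gene start in kb, with the gene body shaded, 1 panel per gene and 1 symbol per library. A missing symbol means that the region was not called there. Nr2f2 has no symbol within 1 kb of its outermost annotated start, and its PDGFB-WT symbols lie in the gene body, past the 3′ end and in the downstream flank.

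Nr2f1 encodes the receptor that sets the front-to-back pattern of the cortex. At its start the summed peaks held 20.4 CPM (18.0 to 22.9) in Control, 16.2 (12.3 to 20.9) for PDGFB-WT and 19.5 (17.1 to 22.0) for PDGFB-NLS. These 3 intervals overlap. Control called 2 peaks there and the other libraries 1 each. Relative to the median of all gene ends, the log2 ratio was -0.18 (-0.63 to 0.22) for PDGFB-WT against Control, -0.05 (-0.34 to 0.17) for PDGFB-NLS against Control and 0.14 (-0.29 to 0.56) for PDGFB-NLS against PDGFB-WT. The first of these depended on which peaks were counted and how: it was 0.45 with a window of 2000 bp, 0.20 with only regions called in all 3 libraries and 1.25 per kb of peak.

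The distal regions of Nr2f1, summed over the 7 called in all 3 libraries, held 82.7 CPM (78.0 to 87.7) in Control, 139.7 (128 to 152.5) for PDGFB-WT and 98.3 (93.0 to 104) for PDGFB-NLS. PDGFB-WT was above both other libraries, and their intervals did not overlap its own. Relative to the median of all regions, the log2 ratio was 0.62 (0.46 to 0.77) for PDGFB-WT against Control, 0.21 (0.10 to 0.33) for PDGFB-NLS against Control and -0.42 (-0.56 to -0.26) for PDGFB-NLS against PDGFB-WT. Of these regions, 3 had the most CPM. One 2.86 kb upstream of the start (chr13:78201281-78202176) held 23.4, 32.9 and 30.4 CPM in Control, PDGFB-WT and PDGFB-NLS. One 35.6 kb downstream (chr13:78162896-78163677), inside the gene Fam172a, held 21.8, 26.2 and 21.3 CPM. One 4.84 kb upstream (chr13:78203246-78204186) held 16.5, 30.7 and 19.1 CPM, and was the one of these 3 with the largest gap between PDGFB-WT and Control, at log2 0.76 (0.38 to 1.04).

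The highest ratio of a distal Nr2f1 region was 19.4 kb downstream of the start (chr13:78178898-78180125). It held 3.37 CPM in Control, 12.2 for PDGFB-WT and 6.23 for PDGFB-NLS. The log2 ratio was 1.71 (1.01 to 2.29) for PDGFB-WT against Control and 0.85 (0.30 to 1.39) for PDGFB-NLS against Control. A region inside the gene body (chr13:78194490-78195656) held 4.97, 10.97 and 7.08 CPM and also passed 2-fold in PDGFB-WT, at log2 1.01 (0.33 to 1.52).

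Nr2f2 encodes the receptor known from vein identity and interneurons. Its outermost annotated start, the only one examined, had no peak in any library. The value of its gene end therefore rests on a region just past the 3′ end (chr7:70350589-70351594). Over all genes with a known strand, the end used was the start in 92.4%, and Nr2f2 belongs to the rest. The region held 4.19 CPM (3.197 to 5.39; 108 counts) in Control, 20.9 (16.5 to 26.1; 141 counts) for PDGFB-WT and 12.8 (10.98 to 14.9; 315 counts) for PDGFB-NLS. No 2 of these intervals overlap, and the order was Control, PDGFB-NLS, PDGFB-WT. Relative to the median of all gene ends, it was 5.57-fold higher in PDGFB-WT than in Control (log2 2.48, 1.95 to 2.96) and 3.10-fold higher in PDGFB-NLS (log2 1.63, 1.17 to 2.05). PDGFB-NLS was lower than PDGFB-WT by 0.83 on the log2 scale (log2 -0.83, -1.23 to -0.43).

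The region past the 3′ end was also read relative to the median of all regions. It was then 4.55-fold higher in PDGFB-WT than in Control (log2 2.18, 1.66 to 2.67). PDGFB-NLS was 2.99-fold higher than Control (log2 1.58, 1.12 to 1.997). On this baseline the other 2 Nr2f2 regions called in all 3 libraries moved less against Control. The strongest, in the gene body 5.15 kb downstream of the annotated start (chr7:70360877-70362311), held 20.2 CPM in Control, 21.5 for PDGFB-WT and 30.04 for PDGFB-NLS. Its log2 ratio was -0.05 (-0.42 to 0.34) for PDGFB-WT and 0.54 (0.31 to 0.77) for PDGFB-NLS against Control. RefSeq lists 4 Nr2f2 transcripts, and whether this gene body region lies at the start of one of them was not examined. A region 20.4 kb downstream of the start (chr7:70345820-70346922) held 9.70, 19.0 and 19.1 CPM, with log2 ratios of 0.83 (0.39 to 1.28) and 0.94 (0.62 to 1.26). Summed, these 2 regions held 29.9 CPM (27.0 to 33.0) in Control, 40.5 (34.1 to 47.7) for PDGFB-WT and 49.1 (45.3 to 53.1) for PDGFB-NLS. The relative log2 ratios were 0.30 (0.02 to 0.59), 0.68 (0.50 to 0.87) and, for PDGFB-NLS against PDGFB-WT, 0.37 (0.10 to 0.63). PDGFB-NLS was the highest of the 3 libraries in the distal sum and PDGFB-WT the highest past the 3′ end. With all own peaks of each library counted, the PDGFB-WT ratio of the distal sum changed sign, to log2 -0.19.

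Nr2f6 encodes a widely expressed member of the family, and it lies in a stretch dense with other genes. Its start held 46.9 CPM (43.3 to 50.7) in Control, 36.0 (30.1 to 42.8) for PDGFB-WT and 40.7 (37.3 to 44.3) for PDGFB-NLS. Per kb of peak this was 56.9, 39.9 and 49.6 CPM, the highest of the 4 genes in each library. The log2 ratios were -0.22 (-0.50 to 0.06), -0.19 (-0.33 to 0.00) and 0.05 (-0.22 to 0.35). A region in the gene body (chr8:71375309-71376407), the only distal one called in all 3 libraries away from other genes' ends, held 9.77, 11.6 and 9.04 CPM. Another 4 regions of the window called in all 3 libraries lay at the ends of other protein-coding genes (Use1, Ocel1, Babam1 and Ankle1) and were left out of the sum. None of them passed 2-fold in any comparison. All intervals of these start and gene body ratios covered 0, the start ratios being relative to the median of gene ends. Relative to the median of all regions, the start ratios against Control had intervals that left 0. They were log2 -0.51 (-0.79 to -0.23) for PDGFB-WT and -0.24 (-0.39 to -0.05) for PDGFB-NLS.

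Nr2e1 encodes TLX, the stem cell receptor. Its start held 15.4 CPM (13.3 to 17.6; 396 counts) in Control, 28.7 (23.6 to 34.7; 194 counts) for PDGFB-WT and 20.3 (18.0 to 22.9; 499 counts) for PDGFB-NLS. The 3 intervals do not overlap, with Control lowest and PDGFB-WT highest. Relative to the median of all gene ends, PDGFB-WT was 2.09-fold higher than Control (log2 1.06, 0.76 to 1.45) and PDGFB-NLS 1.34-fold higher (log2 0.42, 0.17 to 0.70). PDGFB-NLS was lower than PDGFB-WT by 0.63 on the log2 scale (log2 -0.63, -0.99 to -0.32). The first of these is near the 2-fold line: it was 0.90 without the median taken off, 0.89 with each entry read as 0 or 1 and 0.97 per kb of peak. Relative to the median of all regions, the start was 1.71-fold higher in PDGFB-WT than in Control (log2 0.77, 0.47 to 1.16).

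The 2 distal regions of Nr2e1 called in all 3 libraries lie 8.39 kb (chr10:42591403-42592556) and 30.6 kb (chr10:42613712-42614741) upstream of the start. Summed, they held 16.1 CPM (14.0 to 18.4) in Control, 21.3 (16.9 to 26.6) for PDGFB-WT and 25.3 (22.6 to 28.2) for PDGFB-NLS. The relative log2 ratio was 0.28 (-0.03 to 0.74) for PDGFB-WT against Control, 0.62 (0.38 to 0.89) for PDGFB-NLS against Control and 0.33 (-0.10 to 0.63) for PDGFB-NLS against PDGFB-WT. The intervals of PDGFB-WT overlap those of both other libraries. With 100 kb on either side the ratios against Control were -0.16 for PDGFB-WT and 0.18 for PDGFB-NLS. Among the 7 regions called in PDGFB-NLS alone, the strongest lay in the gene body 3.59 kb downstream of the start (chr10:42579484-42580522), with 9.16 CPM from 225 counts. At that level Control would hold 236 counts and PDGFB-WT 61.8. Of all regions of the series whose highest level in the other libraries was within 25% of it, 92.8% were also called in Control and 61.3% in PDGFB-WT. The next strongest, 48.8 kb upstream (chr10:42632020-42632719), held 6.47 CPM, a level at which 85.9% of regions were called in Control and 43.0% in PDGFB-WT. A region that is not called has no count, so no fold can be given for it. With all own peaks of each library counted, the distal sum of Nr2e1 was 28.5 CPM in Control, 24.9 for PDGFB-WT and 69.5 for PDGFB-NLS.

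The counts past 2-fold are given beside the same share over all features. At least 2-fold higher in PDGFB-WT than in Control were 2 of 4 gene ends (Nr2f2 and Nr2e1), against 2.29% of 10726 gene ends compared. In PDGFB-NLS against Control it was 1 of 4 (Nr2f2), against 1.20% of 12513. None of the 4 was at least 2-fold lower, against 0.354% and 0.224% of all. Between PDGFB-NLS and PDGFB-WT none of the 4 passed 2-fold either way, against 0.233% of 10742 higher and 0.512% lower. Since the genes were chosen with these values known, nothing is read from these counts. Over the 16 regions of the 4 genes called in all 3 libraries and away from other genes' ends, 3 were at least 2-fold higher in PDGFB-WT than in Control (2 distal ones of Nr2f1 and the one past the 3′ end of Nr2f2), against 16.0% of all 47450 regions. In PDGFB-NLS against Control it was 1 of 16 (past the 3′ end of Nr2f2) against 5.98%, and for PDGFB-NLS against PDGFB-WT 0 of 16 against 2.11%. None of the 16 was at least 2-fold lower, against 3.85%, 0.980% and 7.59% of all regions in the same order. The median relative log2 ratio of the 16 regions was 0.65, 0.36 and -0.24 in the 3 comparisons, beside 0 by construction for all regions. The Nr2e1 start, past 2-fold among gene ends in PDGFB-WT against Control, was 1.71-fold higher on this baseline. A region enters only if it was called in the shallow PDGFB-WT library. The first 2 comparisons share Control and the last 2 share PDGFB-NLS, so they are not independent.

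**Figure D2:**
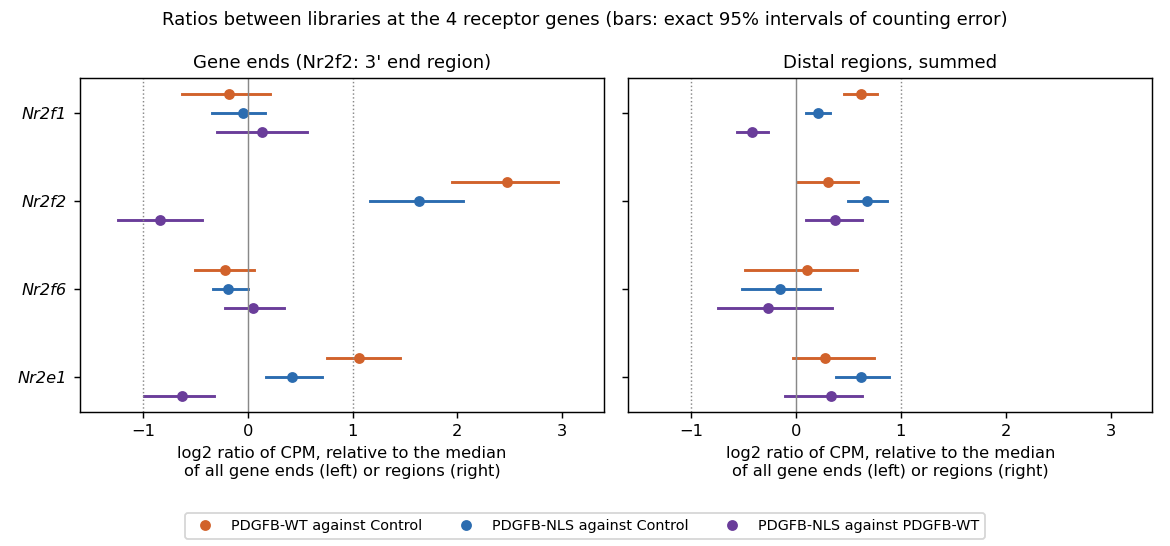
Log2 ratio of CPM between libraries, relative to the median of all gene ends (left) or all regions called in all 3 libraries (right), for each gene, with exact 95% intervals of counting error as bars and 2-fold as dotted lines. The Nr2f2 point at 2.48 for PDGFB-WT against Control, in the left panel, is the region past the 3′ end. All Nr2f6 points lie between -0.27 and 0.11.

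Barcodes were clustered in each library without the peaks of the 4 windows, and 8 classes were named from marker genes. Microglia or macrophage-like, astrocyte-like and OPC-like barcodes (OPC, oligodendrocyte precursor cell) were found in every library. Inhibitory neuron-like was a weak name in Control: its clusters had median log2 folds of 1.04 and 1.03 over inhibitory markers, where naming needed 1. Of 17 such markers 9 passed 2-fold in each, and 0 were among the leading genes. Microglia or macrophage markers summed to 645 CPM in these Control barcodes and to 249 in the PDGFB-NLS ones of this name. The makeup of the counts differed: OPC-like barcodes gave 2.47% of Control's counts, 30.7% in the PDGFB-WT library and 15.7% in the PDGFB-NLS library. Oligodendrocyte-like barcodes gave 25.2% in Control and 19.6% in PDGFB-NLS, and no PDGFB-WT cluster took that name. Astrocyte-like barcodes gave 18.4%, 23.0% and 21.6%, and microglia or macrophage-like barcodes 35.4%, 31.6% and 32.2%. Unnamed clusters held 14.8% of the counts in PDGFB-WT. The levels of the 4 genes over whole libraries rest on this makeup, and its part in the ratios above was not tested. A higher level in a library can come from more barcodes of a class or from more accessibility per barcode, and over whole libraries these cannot be told apart.

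The 4 loci had distinct patterns over the classes, described here as CPM summed over a gene's regions called in all 3 libraries. In Control, Nr2e1 was highest in astrocyte-like, OPC-like and inhibitory neuron-like barcodes, Nr2f1 in mural or fibroblast-like and astrocyte-like ones and Nr2f2 in mural or fibroblast-like and endothelial-like ones, and Nr2f6 had the narrowest range. The plot of levels by class shows these patterns for each library.

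**Figure D3:**
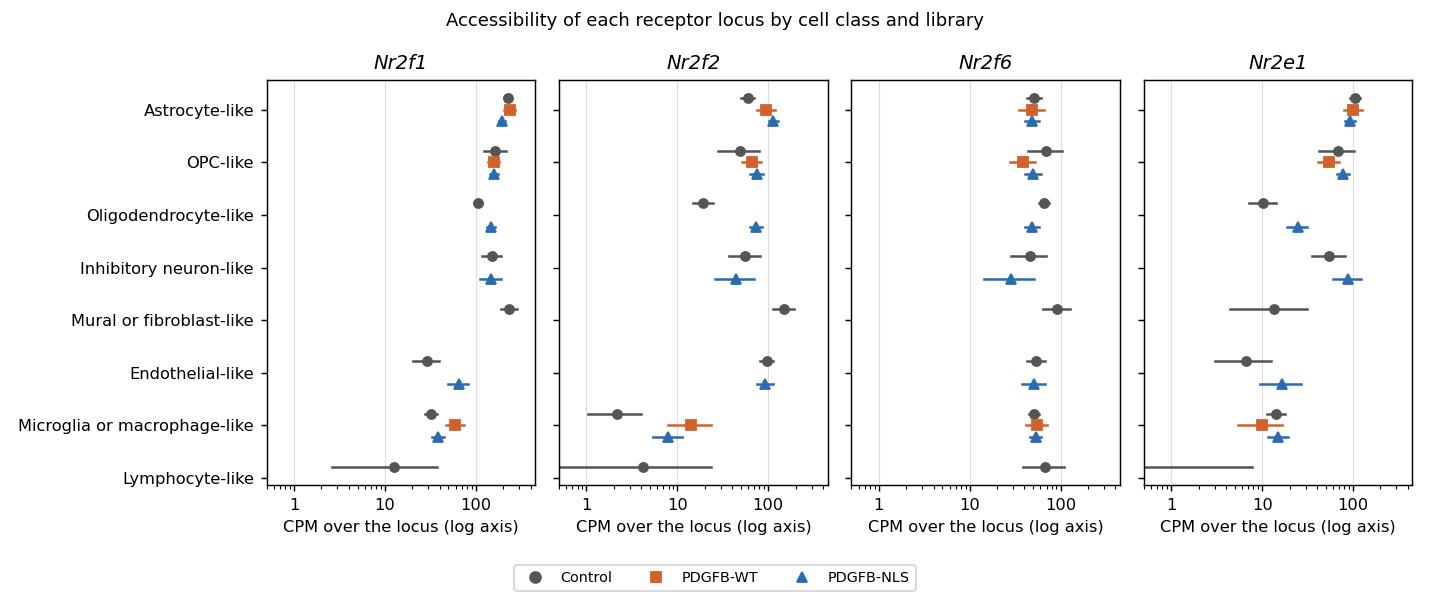
CPM over each locus (log axis) in each named class, 1 panel per gene and 1 symbol per library, with bars for exact 95% Poisson intervals of counting error on fragments. A bar without a symbol is a level of 0 with its upper bound. Nr2f2 spans 2.19 to 149 CPM over the Control classes, and Nr2f6 45.5 to 90.5.

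Nr2e1 was highest in astrocyte-like barcodes, with 104 CPM (91.5 to 118) in Control, 100.01 (79.2 to 125) for PDGFB-WT and 91.7 (80.7 to 104) for PDGFB-NLS. OPC-like barcodes held 67.4 (42.3 to 102), 54.1 (41.6 to 69.3) and 78.0 (66.4 to 91.0). In inhibitory neuron-like barcodes it was 54.8 (35.5 to 80.9) in Control and 87.7 (60.7 to 122.5) in PDGFB-NLS, and both intervals overlap those of OPC-like barcodes. In PDGFB-NLS this level lay between those of astrocyte-like and OPC-like barcodes, and the 3 intervals overlap. The 2 inhibitory clusters of Control differed, at 83.2 (52.1 to 126) and 14.2 (2.92 to 41.4). Microglia or macrophage-like barcodes held 14.4 (11.3 to 18.1), 9.86 (5.39 to 16.5) and 14.9 (11.5 to 19.0). Among Control classes the low end was formed by mural or fibroblast-like barcodes at 13.5 (4.38 to 31.5), oligodendrocyte-like at 10.3 (7.22 to 14.3), endothelial-like at 6.66 (3.05 to 12.6) and lymphocyte-like at 0 (upper bound 7.80), whose intervals overlap in sequence.

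Nr2f1 had the same high classes and a further one. In Control it held 234 CPM (188 to 287.5) in mural or fibroblast-like and 224 (206 to 244) in astrocyte-like barcodes, which overlap. OPC-like barcodes held 165 (124 to 214), inhibitory neuron-like 149 (116 to 189) and oligodendrocyte-like 106 (95.3 to 117). Microglia or macrophage-like barcodes held 32.2 (27.4 to 37.6), endothelial-like 28.9 (20.6 to 39.3) and lymphocyte-like 12.7 (2.62 to 37.1). In PDGFB-WT the highest Nr2f1 level of any cluster was in an unnamed one of 658 barcodes, at 346 (277 to 426), above the 235.5 (203 to 272) of astrocyte-like barcodes there. The best marker list of this unnamed cluster was that of astrocytes, at a median log2 fold of 0.97, where naming needed 1.

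Nr2f2 was highest in Control in mural or fibroblast-like barcodes, with 149 CPM (112 to 193), and in endothelial-like ones, with 96.2 (80.6 to 114). Astrocyte-like barcodes held 59.6 (50.4 to 69.9), inhibitory neuron-like 56.0 (36.6 to 82.0) and OPC-like 48.6 (27.8 to 79.0), and these 3 overlap. Oligodendrocyte-like barcodes held 19.2 (14.8 to 24.6), lymphocyte-like 4.23 (0.11 to 23.6) and microglia or macrophage-like 2.19 (1.05 to 4.03). No PDGFB-NLS cluster took the mural or fibroblast-like name. Astrocyte-like barcodes there held 114 (102 to 127) and endothelial-like 92.9 (74.8 to 114), which overlap, OPC-like 74.6 (63.1 to 87.5) and oligodendrocyte-like 73.4 (63.2 to 84.8). With every barcode thinned to 500 counts in common regions, the share of barcodes with a count at Nr2f2 was 8.26% (10 of 121) in mural or fibroblast-like, 4.99% (22 of 441) in endothelial-like and 0% (0 of 493) in microglia or macrophage-like barcodes of Control. Unthinned, the shares were 27.0%, 18.2% and 1.82%. The count of 0 allows a thinned share of up to 0.609%, taking 3 barcodes as the limit (0.745% by the exact 95% interval), and is taken as the background for the other classes. In oligodendrocyte-like barcodes the thinned share was 0.277% (1 of 361) in Control and 3.36% (71 of 2116) in PDGFB-NLS, and the unthinned share 12.5% and 8.0% at median depths of 19014 and 2179 counts.

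Nr2f6 held 50.4 CPM (44.3 to 57.2) in microglia or macrophage-like, 51.2 (42.5 to 61.0) in astrocyte-like, 53.7 (42.1 to 67.4) in endothelial-like and 66.2 (57.8 to 75.4) in oligodendrocyte-like barcodes of Control. Its highest class there was mural or fibroblast-like at 90.5 (63.4 to 125) and its lowest inhibitory neuron-like at 45.5 (28.2 to 69.5), and these intervals overlap. The mural or fibroblast-like interval lies above those of microglia or macrophage-like and astrocyte-like barcodes. In PDGFB-WT it ran from 38.7 (27.7 to 52.5) in OPC-like to 54.9 (42.1 to 70.4) in microglia or macrophage-like barcodes. In PDGFB-NLS all classes but inhibitory neuron-like lay between 48.5 and 52.9.

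Within a class, libraries were compared only where no cluster of it had more markers of another class than of its own among its leading genes, over regions with at least 20 counts in both libraries, and relative to the median of all regions of that class. In oligodendrocyte-like barcodes the Nr2f2 locus held 19.2 CPM in Control (125 counts in 361 barcodes) and 73.4 in PDGFB-NLS (353 counts in 2137 barcodes). That is 3.79-fold higher in PDGFB-NLS (log2 1.92, 1.54 to 2.40). Both of its regions with enough counts were higher: the one in the gene body held 12.3 and 34.3 CPM (log2 1.47, 0.99 to 2.12) and the one downstream 4.31 and 22.5 (log2 2.37, 1.51 to 3.34). The region past the 3′ end, at 17 counts in Control, held 2.62 and 16.6 CPM. Nr2e1 was 2.36-fold higher, at 24.5 against 10.3 CPM (log2 1.24, 0.63 to 1.87), and Nr2f1 1.37-fold higher, at 146 against 106 (log2 0.45, 0.25 to 0.67). Nr2f6 went the other way, at 48.7 against 66.2 CPM (log2 -0.45, -0.74 to -0.10). Of 12 regions of the 4 genes compared there, 4 were at least 2-fold higher and 0 at least 2-fold lower, against 7.95% and 2.55% of 30506 regions. The genes were chosen on whole-library values that include the counts of these barcodes. Nothing is therefore read from the shares past 2-fold here or in the classes below. In the same barcodes the 18 endothelial markers summed to 161 CPM in Control and 240 in PDGFB-NLS, with 9 and 8 of them at 0. The 18 astrocyte markers in them summed to 387 and 452 CPM and the 18 OPC markers to 1412 and 1566, with 2 astrocyte and 0 OPC markers at 0 in both libraries. The part of barcodes of mixed content in these ratios was not tested beyond removing predicted doublets, which left Nr2f2 at log2 1.86 and Nr2e1 at 1.13. With barcodes thinned to 500 counts and clustered again, Nr2f2 held 34.4 CPM in Control and 69.5 in PDGFB-NLS and Nr2e1 34.4 and 47.8, and too few counts were left for a ratio.

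In endothelial-like barcodes, where COUP-TFII is known to mark veins, Nr2f2 held 96.2 CPM in Control and 92.9 in PDGFB-NLS, with a log2 ratio of -0.03 (-0.43 to 0.37). Nr2f1 was 2.28-fold higher in PDGFB-NLS, at 64.9 against 28.9 CPM (123 and 78 counts, log2 1.19, 0.60 to 1.80). The only Nr2f1 region with enough counts in both libraries, 35.6 kb downstream of the start, held 31 and 33 of these counts, or 16.4 and 12.2 CPM (log2 0.44, -0.65 to 1.51). Of 5 regions of the 4 genes compared there, 0 passed 2-fold, against 2.77% higher and 1.32% lower of 15827. OPC markers summed to 585 CPM in these PDGFB-NLS barcodes and 500 in Control, and endothelial markers to 742 and 993. Mural or fibroblast markers summed to 368 and 293 CPM in the same order, and astrocyte markers to 411 and 350. The part of any of these in the Nr2f1 ratio was not tested. With thinned barcodes clustered again, Nr2f1 held 78.3 CPM in Control and 86.2 in PDGFB-NLS, and too few counts were left for a ratio.

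In microglia or macrophage-like barcodes Nr2f2 was near the bottom of its range in every library, at 2.19 CPM (20 counts) in Control, 14.1 (30 counts) for PDGFB-WT and 7.96 (63 counts) for PDGFB-NLS. The log2 ratio against Control was 2.68 (1.41 to 3.98) in PDGFB-WT and 1.85 (0.80 to 3.05) in PDGFB-NLS. With predicted doublets removed, the Control level was 1.37 CPM and that of PDGFB-NLS 2.95. The 18 OPC markers summed to 430 CPM in Control, 521 for PDGFB-WT and 504 for PDGFB-NLS in these barcodes, with 2, 0 and 0 of them at 0. The 18 endothelial markers summed to 315, 310 and 314 CPM and the 18 astrocyte markers to 411, 458 and 412. The 18 microglia or macrophage markers summed to 1942, 1589 and 1781 CPM. The part of any of these in the Nr2f2 ratios was not tested. With thinned barcodes clustered again, Nr2f2 held 22.5 CPM in Control, 11.5 for PDGFB-WT and 30.5 for PDGFB-NLS, so that PDGFB-WT was then the lowest. Nr2f1 was 1.84-fold higher in PDGFB-WT than in Control, at 59.6 against 32.2 CPM (log2 0.88, 0.50 to 1.34). A single region 4.84 kb upstream of its start held 18.8 CPM there (40 counts), 4.28 in Control (39 counts) and 4.93 in PDGFB-NLS (39 counts). It was the only one of 3 regions at least 2-fold higher in PDGFB-WT than in Control, against 5.15% of 23883, and 0 were lower, against 3.32%. In PDGFB-NLS 0 of 10 regions passed 2-fold against Control, beside 1.57% higher and 0.611% lower of 31283. Between PDGFB-NLS and PDGFB-WT, 0 of 3 were higher and 1 lower (the same one, at log2 -1.90), against 3.19% and 4.50% of 23946. Nr2e1 and Nr2f6 had ratios against Control whose intervals covered 0 in both libraries.

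In OPC-like barcodes no ratio of the 4 loci against Control had an interval that left 0, at 31 to 105 counts per locus in Control's 57 barcodes. Nr2f2 held 48.6, 66.2 and 74.6 CPM in Control, PDGFB-WT and PDGFB-NLS, with log2 ratios against Control of 0.59 (-0.15 to 1.52) and 0.74 (-0.01 to 1.58). A difference was not detectable at this depth. Of 3 regions compared with Control, 0 passed 2-fold in PDGFB-WT, beside 0.978% higher and 4.40% lower of 10936, and 0 in PDGFB-NLS, beside 0.673% and 3.67% of 10999. Between PDGFB-NLS and PDGFB-WT, the Nr2e1 locus was higher in PDGFB-NLS at log2 0.56 (0.05 to 0.92). Of single regions, the Nr2f6 start was higher in PDGFB-NLS at 0.66 (0.06 to 1.42) and the one past the 3′ end of Nr2f2 lower, at -0.92 (-1.68 to -0.06). Of 13 regions compared between these libraries none passed 2-fold, against 1.85% higher and 3.15% lower of 26901.

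Astrocyte-like barcodes are given by cluster, since 2 of their 5 clusters had more markers of another class than of their own among their leading genes. Nr2f2 held 69.3 CPM (55.9 to 85.0) and 48.7 (36.9 to 63.1) in the 2 Control clusters, 94.8 (74.8 to 118.5) in that of PDGFB-WT, and 140.1 (122 to 159.7) and 78.9 (63.7 to 96.6) in the 2 of PDGFB-NLS. The intervals of the 2 PDGFB-NLS clusters do not overlap. Nr2e1 ran the other way between those 2, with 76.9 (63.9 to 91.9) and 112 (93.2 to 133). The region past the 3′ end of Nr2f2 held 3.98 CPM (1.46 to 8.67) and 4.91 (1.80 to 10.7) in the 2 Control clusters, 30.3 (19.98 to 44.1) in that of PDGFB-WT, and 35.2 (26.8 to 45.4) and 15.95 (9.60 to 24.9) in the 2 of PDGFB-NLS. In the same clusters the gene body region held 43.0 and 27.2 CPM in Control, 37.4 in PDGFB-WT, and 68.4 and 41.2 in PDGFB-NLS. In endothelial-like barcodes the region past the 3′ end held 14.8 CPM in Control and 13.7 in PDGFB-NLS. The plot of the Nr2f2 regions shows them summed by class.

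**Figure D4:**
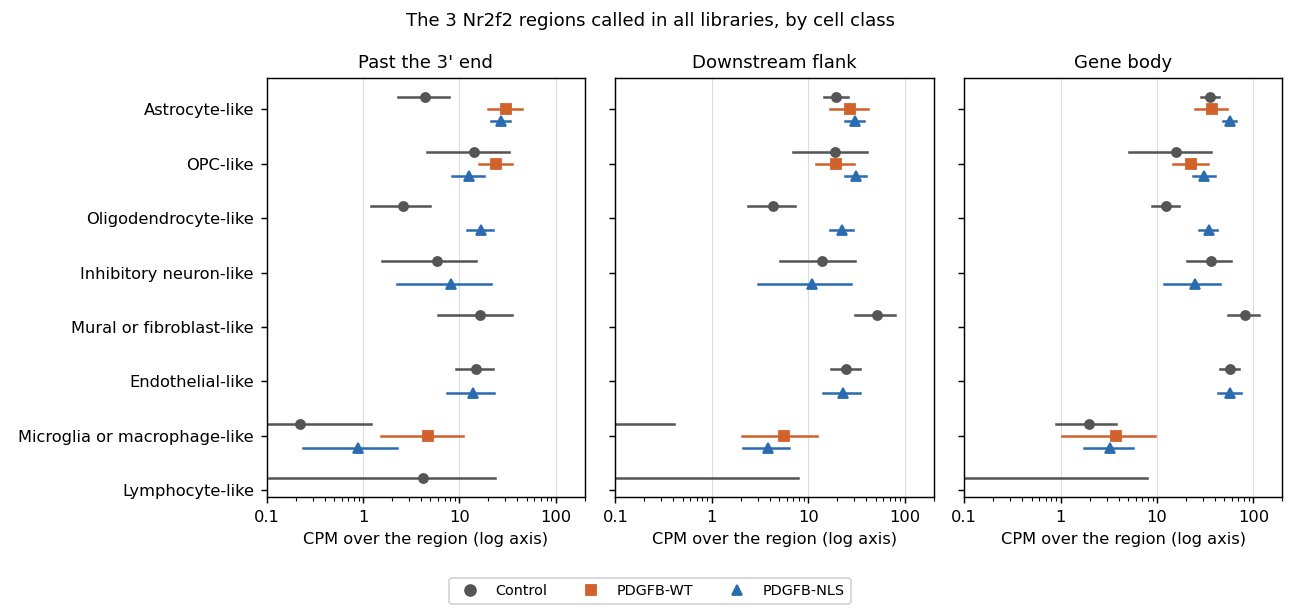
CPM (log axis) of the 3 Nr2f2 regions called in all libraries, by class and library, with exact 95% Poisson intervals of counting error; bars without a symbol are levels of 0. The clusters of a class are summed, and astrocyte-like ones, which are not compared between libraries as a class, are given singly in the text. Past the 3′ end, Control lies at 2.62 CPM in oligodendrocyte-like barcodes, below PDGFB-NLS at 16.6, and at 14.8 in endothelial-like ones, beside PDGFB-NLS at 13.7.

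The genes most like each member over the 24 clusters with enough counts were found by Pearson correlation of log2 CPM, centred within each library, among 10726 gene ends. The points share libraries and depth, so the values are a description. For Nr2e1 they were Gldc (0.91), Pou3f2 (0.90), Disp3 (0.88), Rnf182 (0.86) and Adgrv1 (0.86). For Nr2f1 they were Gpc6 (0.94), Pde10a (0.93), Slc35f1 (0.93), Clu (0.93) and Pclo (0.92). For Nr2f2 they were Epha7 (0.95), Fbxl7 (0.93), Mtss2 (0.92), and Tshz3 and Gm36722 with one shared value (0.92). For Nr2f6 the highest were Sars (0.78), Ndufaf6 (0.75), Riox2 (0.74), Arhgap29 (0.73) and Aifm2 (0.72), lower than for the other 3. Among the members, Nr2f1 and Nr2e1 were the most alike (0.79), followed by Nr2f1 and Nr2f2 (0.62) and by Nr2f2 and Nr2e1 (0.44). By Spearman correlation these 3 values were 0.72, 0.43 and 0.12. Nr2f6 had Pearson values of -0.19, -0.04 and -0.26 with Nr2f1, Nr2f2 and Nr2e1.

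Other genes around these receptors were read from lists, with the same relative log2 ratio at gene ends. Their counts stand beside the 2.29% and 1.20% of all gene ends compared that were at least 2-fold higher in PDGFB-WT and in PDGFB-NLS than in Control. Of 8 other NR2 receptors, 4 had enough counts in PDGFB-WT against Control and 6 in PDGFB-NLS against Control, and 0 passed 2-fold in either. Their medians were 0.05 and -0.04, and the highest was Rxrg, a retinoid X receptor, at 0.66 in PDGFB-NLS. Of 16 corepressors and partners, 13 were compared, with medians of -0.01 and 0.00. Only Zfpm2, a FOG cofactor that binds COUP-TFII, passed 2-fold, at 1.15 (0.84 to 1.44) in PDGFB-WT and 0.66 (0.45 to 0.90) in PDGFB-NLS.

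Of 8 reported TLX targets, 5 were compared and 2 were at least 2-fold higher in both libraries. Gfap, the astrocyte filament gene that TLX represses, held 5.55 CPM in Control, 40.2 for PDGFB-WT and 32.3 for PDGFB-NLS, at log2 3.01 (2.61 to 3.45) and 2.56 (2.20 to 2.95). S100b and Sirt1 did not pass 2-fold, at 0.84 and 0.01 in PDGFB-WT. The list medians were 0.84 and 0.20. Of 10 reported COUP-TF targets, 7 and 9 were compared, with medians of -0.10 and 0.21, and only Fabp7, a radial glia gene, passed 2-fold, at 1.14 (0.77 to 1.48) in PDGFB-WT. Its ratio in PDGFB-NLS was 0.81 (0.54 to 1.06). The vein gene Ephb4, which COUP-TFII favours, was at -0.21 and 0.21.

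Of 12 neural stem cell and regional transcription factors, 5 and 7 were compared. Emx2, at 1.17 (0.83 to 1.42), and Dmrta2, at 1.12 (0.81 to 1.49), were at least 2-fold higher in PDGFB-WT than in Control, and 0 were in PDGFB-NLS, against 2.29% and 1.20% of all gene ends compared. Their start regions held 20.2, 40.8 and 29.5 CPM for Emx2 and 16.3, 31.6 and 13.8 CPM for Dmrta2 in Control, PDGFB-WT and PDGFB-NLS. Dmrta2 was the only one of 5 past 2-fold between PDGFB-NLS and PDGFB-WT, where it was lower by 1.32 on the log2 scale (log2 -1.32, -1.70 to -0.99), against 0.512% of all gene ends. The list medians were 0.76 in PDGFB-WT, -0.11 in PDGFB-NLS and -0.60 between them. A gene end was compared only where both libraries reached 100 counts, which the shallow PDGFB-WT library limits.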

How the data were processed

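Chromatin accessibility was measured in 3 libraries, 1 per group. Per the file headers, the deposited files hold whole-number counts per peak and barcode made with cellranger-atac 2.1.0, and per the submitters' processing notes Cell Ranger 8 and mm10 were used; each library has its own peaks. Most nonzero counts are 2 (72.9%, 89.4% and 87.9% for Control, PDGFB-WT and PDGFB-NLS), so intervals were computed on fragments, taken as counts halved and rounded up. Barcodes with at least 200 counts and peaks on chromosomes were kept. Overlapping peaks were merged across libraries, CPM were scaled to regions called in all 3, and log2 ratios were set relative to the median of all gene ends (peaks within 1000 bp, both libraries at 100 counts or more) or of all common regions. A ratio of 2-fold was counted as past the threshold, with no test. Ratios have exact 95% Clopper-Pearson intervals and levels exact Poisson intervals. Each library was clustered alone (Leiden, resolution 0.6) without the peaks of the 4 windows, and classes were named from marker lists. Doublets were kept, and as an alternative those predicted from simulated doublets, at 0.8% per 1000 barcodes, were removed. Likeness used log2(CPM + 1).

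The regions named are those at gene ends, the 3 distal ones with most CPM and the extremes past 2-fold; the genes named are the 5 most like each member and the highest and lowest of each list. S100b, Sirt1, Ephb4 and regions described beside these were also given. Some list genes, counted with their lists, are not reported here by name. The members and lists were chosen with earlier results of these data known. Leaving out shared barcodes was chosen after seeing the data. The analysis used Python 3.11.15, numpy 2.4.6, scipy 1.17.1, pandas 2.3.3, scikit-learn 1.9.0, igraph 0.11.9, leidenalg 0.10.2 and matplotlib 3.10.9.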

Additional observations from a re-analysis of the deposited data

How the results depend on the processing

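No paired analysis was possible because each group has 1 library, and leaving out a replicate was not possible for the same reason. Of 114 alternatives for gene end ratios, 96 for distal ratios, 30 for counts of regions and 123 for class ratios, 6, 10, 5 and 2 moved beyond their interval or by over 1.5 times. No ratio past 2-fold in the main setting changed sign in the alternatives that could be computed. Thinning to 500 counts left few of the 31 class ratios to compute (1 moved, 2 the same). Outside this tally, thinned Nr2f2 levels in microglia or macrophage-like barcodes put PDGFB-WT below Control, the reverse of the main setting. The Nr2f1 start, at -0.18 for PDGFB-WT against Control, turned and passed 2-fold per kb of peak. That setting divides by peak length: Control's 2 peaks there were 798 and 1266 bp long and the 1 of PDGFB-WT 741 bp. Per kb the start held 9.87 CPM in Control and 21.8 for PDGFB-WT. The Nr2f1 start moved with peak definition: PDGFB-WT against Control was 0.45 with a 2000 bp window and 1.25 per kb of peak, PDGFB-NLS against Control 0.33 with only common regions and 0.67 per kb, and PDGFB-NLS against PDGFB-WT -0.39 with 2000 bp and -0.57 per kb. With all own peaks of each library, the distal ratio of Nr2f1 was 0.34 for PDGFB-WT against Control and -0.077 between PDGFB-NLS and PDGFB-WT. For Nr2f2 they were -0.19, 0.89 and 1.07 in the 3 comparisons, and for Nr2e1 -0.33, 1.25 and 1.57; this setting adds peaks that only some libraries called. A 100 kb window gave Nr2e1 -0.16 for PDGFB-WT and 0.18 for PDGFB-NLS against Control. At 1.5-fold, 8 regions were higher in PDGFB-WT and 4 in PDGFB-NLS than in Control, and 5 lower in PDGFB-NLS than in PDGFB-WT; at 3-fold 0 were higher in PDGFB-NLS than in Control. With barcodes of at least 1000 counts, 2 were lower in PDGFB-NLS than in PDGFB-WT. In microglia or macrophage-like barcodes, PDGFB-NLS against PDGFB-WT was -1.93 for Nr2f2 without predicted doublets and 0.21 for Nr2f1 with thinned barcodes. Of 316 alternatives for class levels 22 moved, 21 of them under thinning to 500 counts, where 11 of 17 classes were found again. Among these, the low Control levels of Nr2f2 and Nr2e1 in oligodendrocyte-like barcodes moved by over 1.5 times. So did those of Nr2f2 in microglia or macrophage-like and Nr2f1 in endothelial-like barcodes. The within-class ratios resting on these levels were not shown to hold under thinning with new clustering, where class membership can change along with depth. With class labels kept, the thinned share of oligodendrocyte-like barcodes with an Nr2f2 count was 0.277% (0.007 to 1.53) in Control and 3.36% (2.63 to 4.21) in PDGFB-NLS. For the other levels named here, the intervals of the thinned shares overlap between libraries. By Spearman correlation 1, 3, 1 and 3 of the 5 genes most like Nr2f1, Nr2f2, Nr2f6 and Nr2e1 were kept.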
